A study of Mus musculus with 12 samples.

Results

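The Serpina3 cluster is a row of serpin genes on mouse chromosome 12. The 8 genes described here, Serpina3c, Serpina3f, Serpina3g, Serpina3h, Serpina3i, Serpina3k, Serpina3m and Serpina3n, were chosen by name from the 35275 genes of the table, and all 8 had at least 1 read. RNA from brain cortex of mice aged 8 months was sequenced in 12 libraries, 3 in each of 4 groups. WT mice were C57/BL6, and Sirt3-/- mice lacked the mitochondrial deacetylase Sirt3 in all cells. APP/PS1 mice carried transgenes for APP and presenilin 1, and APP/PS1/Sirt3-/- mice had both changes. The study obtained Sirt3-/- mice on both the 129 Sv and the C57BL/6 background and the sources at hand do not say which gave the RNA, so strain and genotype cannot be told apart.

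Serpins are protease inhibitors that act as bait. A flexible stretch near the end of the protein, the reactive centre loop, is cut by the target protease, and the serpin then traps the enzyme. Human genomes carry a single SERPINA3 gene, which encodes alpha-1-antichymotrypsin, a plasma protein made by the liver that is also found in amyloid plaques. In mice the gene has been copied many times, and the copies differ mostly in the loop. Serpina3n is known as a gene of reactive astrocytes and of injured brain, Serpina3k as a plasma protein gene of the liver, and Serpina3g as an inhibitor of cysteine cathepsins in immune cells.

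Some libraries went against their labels. Every library was labelled female, but replicate 4 of each group had 1605 to 2001 reads of Y-linked genes and 8 to 53 reads of Xist, against 0 to 4 and 6323 to 10832 in the other 8 libraries. The library labelled APP/PS1 replicate 4 had 1623 CPM (reads scaled to library size, with TMM factors) of App, below the 1755 to 1828 CPM of WT, while the other APP/PS1 libraries had 3614 and 3794 CPM. The libraries labelled APP/PS1/Sirt3-/- replicates 1 and 4 had 28.6 and 27.7 CPM of Sirt3, against 0.186 to 0.467 in Sirt3-/- and 60.8 to 64.5 in WT. All directions below rest on the labels. Each library had between 15251720 and 18644376 reads in genes. The study's methods name several mice per group, and the labels do not tie a library to a mouse, so p-values measure the spread between these libraries.

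The loop is where the copies differ most, so its coding stretch is shown for 6 members. In each line the lower-case bases code for the conserved hinge before the loop and for the residues after it, and the capitals are the bases between them, which include the site that the protease cuts. The stretch of Serpina3n is on chr12:104413448-104413534 and that of Serpina3k on chr12:104345269-104345349, both on the forward strand of GRCm38.
Serpina3n: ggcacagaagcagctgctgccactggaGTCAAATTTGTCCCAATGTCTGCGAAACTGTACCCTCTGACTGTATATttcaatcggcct
Serpina3k: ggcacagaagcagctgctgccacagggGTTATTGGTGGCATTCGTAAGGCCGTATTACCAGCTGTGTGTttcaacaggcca
Serpina3m: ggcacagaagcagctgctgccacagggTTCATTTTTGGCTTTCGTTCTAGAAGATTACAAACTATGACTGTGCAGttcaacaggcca
Serpina3g: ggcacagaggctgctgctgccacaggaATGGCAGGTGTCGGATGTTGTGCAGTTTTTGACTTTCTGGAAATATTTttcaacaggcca
Serpina3f: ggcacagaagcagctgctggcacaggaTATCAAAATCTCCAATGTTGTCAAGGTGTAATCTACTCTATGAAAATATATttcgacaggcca
Serpina3i: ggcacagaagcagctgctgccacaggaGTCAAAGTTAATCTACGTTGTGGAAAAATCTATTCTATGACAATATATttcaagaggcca
Outside the capitals, 84.6 to 89.7% of the bases were those of Serpina3n. Within the capitals, 65.0% of the aligned bases of Serpina3k, 56.5% of Serpina3g, 52.1% of Serpina3m, 71.1% of Serpina3f and 62.5% of Serpina3i were those of Serpina3n. Serpina3k and Serpina3m shared 92.6% of their aligned coding bases, but their loops differ in length as well, with 42 and 48 bases in capitals. Serpina3f and Serpina3i shared 92.1% of coding bases, and Serpina3k and Serpina3n 83.8%.

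Because the copies are alike, a short read can match more than 1 of them. Of all stretches of 50 bases in the transcripts, 27.8% of those of Serpina3n and up to 55.5% of those of Serpina3h were found in another Serpina3 transcript with at most 2 mismatches, the number the authors allowed in alignment. At 100 bases the share was 3.87% for Serpina3n, 13.8% for Serpina3k, 15.2% for Serpina3g and 25.4% for Serpina3i. At 150 bases it was 0% for Serpina3n and Serpina3c, 8.60% for Serpina3k and 10.9% for Serpina3m. The sources at hand give neither the read length nor how reads matching several genes were treated, so the split of reads among the members other than Serpina3n is uncertain. Serpina3m also starts in the same first exon as Serpina3k, where 60 bases (chr12:104338486-104338545) belong to both.

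**Figure D1:**
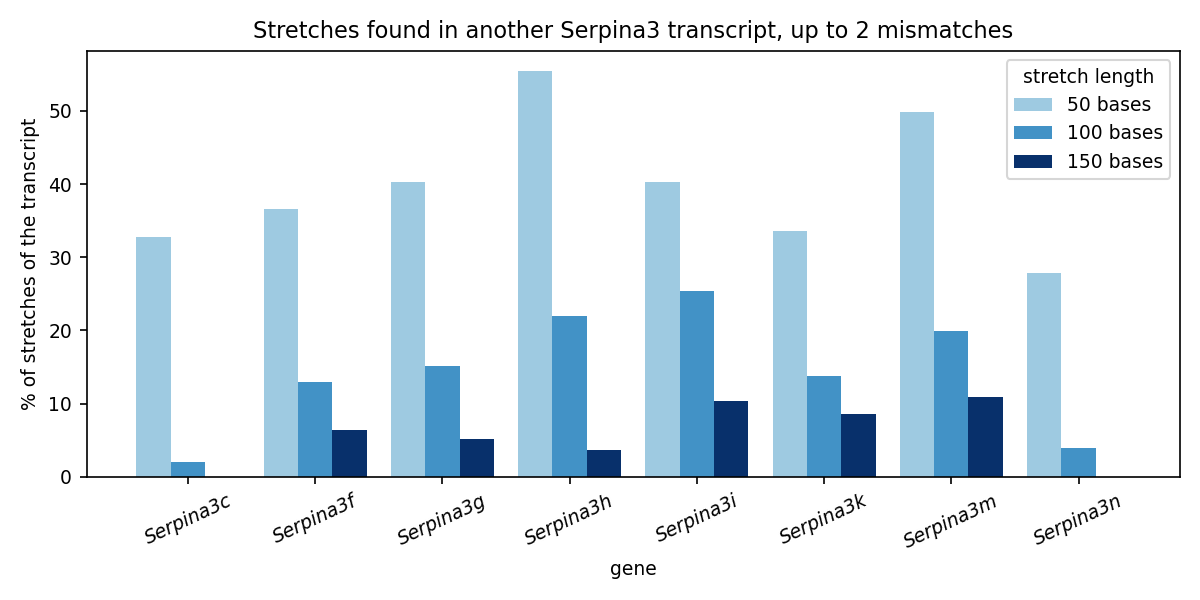
Share of all stretches of 50, 100 or 150 bases in the transcript of each gene (x axis) that were found in another Serpina3 transcript with up to 2 mismatches (y axis, percent). At 100 bases Serpina3n was at 3.87% and Serpina3i at 25.4%, and at 150 bases Serpina3n and Serpina3c were at 0%.

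Serpina3n carried most reads of the cluster in every library, from 76.6 to 97.7% of the reads in the 8 genes. Serpina3k had 264 reads and Serpina3g 139 reads over all 12 libraries, against 3234 of Serpina3n. The other members were nearly silent at this depth. Serpina3h, a transcribed pseudogene, had 24 reads in all, Serpina3m 14, Serpina3f 10, Serpina3c 9 and Serpina3i 4, with at most 5 reads in any library.

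**Figure D2:**
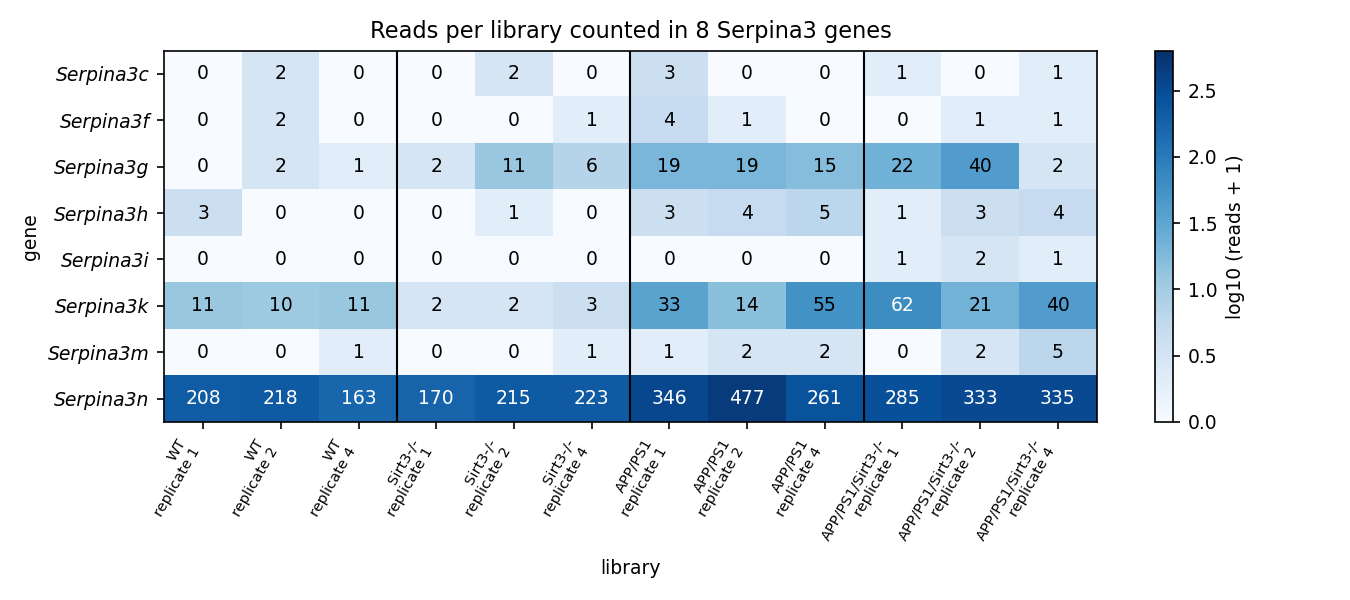
Reads counted in each of the 8 Serpina3 genes (rows) in each of the 12 libraries (columns, grouped by genotype), with colour on a log10 scale of reads + 1. Serpina3n had 163 to 477 reads, Serpina3k 2 to 62 and Serpina3g 0 to 40, and no other member passed 5.

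Per length, the order of the members was the same at the top in every group. By the deposited FPKM (reads scaled to gene length and library size), Serpina3n was first, at 5.81 in WT, 5.98 in Sirt3-/-, 10.5 among APP/PS1 and 8.69 among APP/PS1/Sirt3-/- libraries (group means). Its lowest library lay above the highest library of the next member in all 4 groups. Serpina3k came next in WT (0.316), in APP/PS1 (0.953) and in APP/PS1/Sirt3-/- (1.15). In Sirt3-/- Serpina3g was next at 0.213, with a range that overlapped that of Serpina3k (mean 0.0692). Serpina3k and Serpina3g overlapped in both APP-labelled groups, and in WT Serpina3k lay above every later member. In APP/PS1 Serpina3g lay above Serpina3h (0.192), and Serpina3h above Serpina3m (0.0605). In all groups the members from Serpina3m downward overlapped with their neighbours in the order.

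Only Serpina3n, Serpina3k and Serpina3g had enough reads for the test across genes, which was made on 16673 genes with edgeR's quasi-likelihood test. Serpina3n passed the filter in all groups. Serpina3k passed with 3 libraries each of WT, APP/PS1 and APP/PS1/Sirt3-/- and none of Sirt3-/-. Serpina3g passed only through the APP-labelled libraries, with 3 of APP/PS1 and 2 of APP/PS1/Sirt3-/- beside 1 of Sirt3-/- and none of WT, so a difference between these groups was built into its selection. Its p-values for APP/PS1 are given below as descriptions.

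The first question was what the APP/PS1 transgenes did to these genes, with the 6 libraries labelled with APP/PS1 against the 6 without, averaged over both Sirt3 genotypes. Serpina3k rose 6.72-fold (log2 fold change 2.75 ± 0.40 SE, edgeR adjusted p = 0.0157) and was the member that passed. Serpina3g differed by 2.74 ± 0.65 (SE) on the log2 scale (adjusted p = 0.0509) and Serpina3n by 0.66 ± 0.16 (SE, adjusted p = 0.0586), and both missed the threshold of 0.05. Over all genes tested, 2.05% were called in this comparison, 341 of 16673, and 1.11% were called as higher. All 3 members had an unadjusted p under 0.05, as did 20.9% of genes. With DESeq2 on the same 12 libraries all 3 passed, with adjusted p of 1.18e-06 for Serpina3k, 0.00284 for Serpina3n and 0.00321 for Serpina3g, where 6.58% of genes were called.

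The call on Serpina3k depended on single libraries. Its adjusted p was 0.0561 without WT replicate 4, where no gene at all passed, and 0.0522 without APP/PS1/Sirt3-/- replicate 1, while its log2 fold change stayed at 2.77 and 2.53. Leaving out the 3 libraries that went against their labels left only replicate 2 of APP/PS1/Sirt3-/-, so effect sizes alone are given. The log2 fold change was then 1.96 for Serpina3k, and 3.22 for Serpina3g, whose selection favoured such a difference. Another edgeR fit took marker levels of striatum, thalamus and choroid plexus as covariates. With APP/PS1 averaged it called 4 of 16673 genes. There Serpina3k was at 2.13 (adjusted p = 0.722), Serpina3n at 0.76 (adjusted p = 0.923) and Serpina3g at 0.63 (adjusted p = 0.997).

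In APP/PS1 against WT, all 3 genes were higher in every APP/PS1 library than in any WT library, as were 13.3% of all genes tested. None passed the threshold in edgeR, all 3 had an unadjusted p under 0.05 (17.0% of genes did), and 0% of genes were called. DESeq2 called 2 of the 3 on all 12 libraries, where it called 3.07% of genes, and all 3 when fitted to these groups alone, where it called 7.64% of genes. The log2 fold changes were 0.80 ± 0.23 for Serpina3n, 1.54 ± 0.49 for Serpina3k and 3.89 ± 1.05 for Serpina3g (SE), with edgeR adjusted p of 0.145, 0.162 and 0.126. In APP/PS1/Sirt3-/- against WT, they were 0.54 ± 0.23, 1.80 ± 0.49 and 4.08 ± 1.03 (SE), with adjusted p of 0.218, 0.0771 and 0.0680. None of the 3 passed there in edgeR (1.13% of genes did), and all 3 had an unadjusted p under 0.05 (20.1% of genes did). DESeq2 on all 12 libraries called 2, and 6.31% of genes. Fitted to these groups alone it called all 3, and 6.98% of genes. Serpina3n and Serpina3k were higher without overlap, as were 13.0% of genes. These comparisons share the WT libraries.

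**Figure D3:**
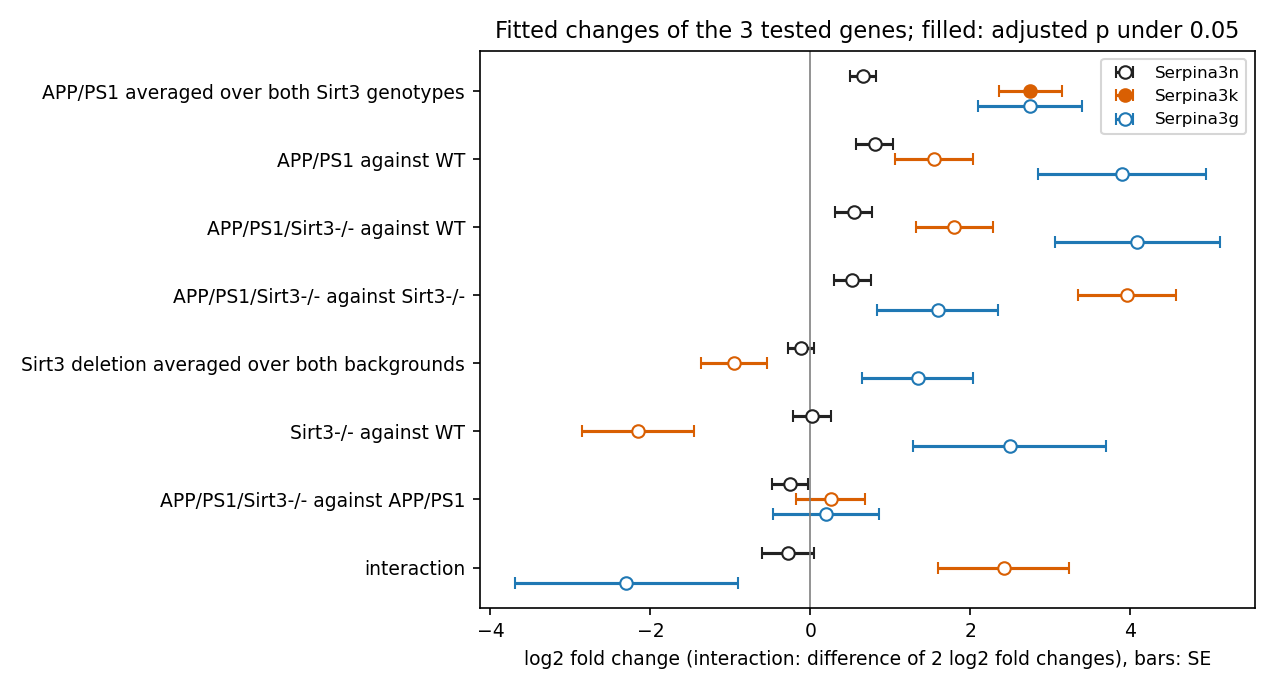
Fitted log2 fold changes (x axis, bars are SE) of Serpina3n, Serpina3k and Serpina3g in the 8 comparisons (y axis), with a filled point where the adjusted p was under 0.05. The only filled point is Serpina3k with APP/PS1 averaged over both Sirt3 genotypes, at 2.75.

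Serpina3n (ENSMUSG00000021091, chromosome 12 from 104406729 to 104414329, forward strand, protein-coding) was the abundant copy. Its read numbers were 208, 218 and 163 in WT, 170, 215 and 223 in Sirt3-/-, 346, 477 and 261 among APP/PS1 and 285, 333 and 335 among APP/PS1/Sirt3-/- libraries, in replicates 1, 2 and 4. In CPM the groups were at 12.2 ± 2.09, 12.4 ± 1.79, 21.4 ± 8.27 and 17.8 ± 1.48 in the same order (SD, n = 3). Every library labelled with APP/PS1 lay above every library without, which held for 0.786% of genes tested (0.78% lay below) (exact permutation p = 0.005 within Sirt3 genotypes, two-sided, the smallest 400 relabellings can give). The lowest was APP/PS1 replicate 4, the library with App at the WT level, at 14.9 CPM against 14.5 in the highest WT library. The highest was APP/PS1 replicate 2, at 30.7 CPM, and without it the averaged difference was 0.49 ± 0.11 (SE) on the log2 scale.

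The upstream bases of Serpina3n are shown beside those of Serpina3c, its closest copy there, since the read numbers of the pair were so unequal. Serpina3c (ENSMUSG00000066361, reverse strand, 104146382 to 104153870) had 0 to 3 reads per library where Serpina3n had 163 to 477. Each line is the 250 bases before the RefSeq gene start on GRCm38.p6, read 5′ to 3′ along the gene, and the capitals are the 21 bases that differ from the other gene or have no partner in it. That of Serpina3n is chr12:104406458-104406707 and that of Serpina3c chr12:104153873-104154122 on the reverse strand.
Serpina3n: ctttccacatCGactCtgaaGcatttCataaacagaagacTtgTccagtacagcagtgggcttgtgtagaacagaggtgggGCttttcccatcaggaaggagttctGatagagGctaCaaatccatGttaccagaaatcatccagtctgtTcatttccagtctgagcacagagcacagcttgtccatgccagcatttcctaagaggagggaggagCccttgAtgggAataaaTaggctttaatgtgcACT
Serpina3c: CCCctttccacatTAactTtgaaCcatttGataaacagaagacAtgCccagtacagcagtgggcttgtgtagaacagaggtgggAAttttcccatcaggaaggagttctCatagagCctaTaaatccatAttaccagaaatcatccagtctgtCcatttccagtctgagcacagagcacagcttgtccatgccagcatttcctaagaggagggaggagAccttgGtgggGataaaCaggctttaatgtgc
Over 247 aligned bases 92.7% were identical. RefSeq starts were at hand for 5 members, Serpina3c, Serpina3f, Serpina3g, Serpina3i and Serpina3n. The letters AGAACA, which the glucocorticoid receptor can bind, occurred in the windows of Serpina3n, Serpina3c and Serpina3i and at 1 of the 2 starts of Serpina3f, and in 16.1% of 32851 promoters searched on both strands.

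The letters TTCNNNGAA, which STAT proteins can bind, occurred in the windows of Serpina3f (both starts), Serpina3g and Serpina3i and in 7.02% of all promoters. Both strands were searched over the 250 bases before each start, and a match is a description of letters only. The 26 bases around the letters AGAAATCA are shown for the 5 members, with a match in capitals. The windows were cut at these shared letters and not by an alignment of the promoters. Their first base was at -40 from the gene start in Serpina3g and at -109 to -130 in the other members.
Serpina3f: gttctatTTCCTAGAAatcacccatt
Serpina3g: gttatagTTCCCAGAAatcacccggt
Serpina3i: gtgcttgTTCCCAGAAatcacccagt
Serpina3n: atccatgttaccagaaatcatccagt
Serpina3c: atccatattaccagaaatcatccagt
The stretch of Serpina3g is chr12:104236107-104236132 and that of Serpina3n chr12:104406578-104406603, both forward on GRCm38.p6. The NF-kB motif was found in the windows of Serpina3g and Serpina3i and in 7.25% of promoters.

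By its pattern over the 12 libraries, Serpina3n was most like a set of genes that included markers of microglia. Among the 8 genes outside the serpins with the highest Pearson r of log2 CPM were Morf4l1 (0.93), BC053749 (0.93), Gm19426 (0.90), Pcbp2 (0.89), Ginm1 (0.89), Grn (0.89) and Tyrobp (0.89). Tyrobp encodes a signalling adaptor of microglia and Grn encodes progranulin. They were picked as the highest of all tested genes, so the values are given without a test. By Spearman's rho, 2 of these 8 stayed among the highest 8.

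The genes that microglia express around plaques had the same highest and lowest library as Serpina3n in APP/PS1 but the opposite order in APP/PS1/Sirt3-/-. Their mean log2 CPM was 2.98 to 3.06 in WT, 2.93 to 3.12 in Sirt3-/-, 3.08 to 4.75 among APP/PS1 and 3.95 to 4.29 among APP/PS1/Sirt3-/- libraries. In APP/PS1 replicate 2 was highest and replicate 4 lowest for both. Among APP/PS1/Sirt3-/- libraries the mean was 4.29, 4.10 and 3.95 in replicates 1, 2 and 4, where Serpina3n was at 16.5, 17.6 and 19.4 CPM. In APP/PS1 replicate 4, Tyrobp was at 9.24 CPM and Clec7a, a receptor of plaque-associated microglia, at 0.171 CPM. Tyrobp was there below its WT range of 11.4 to 13.0, and Clec7a within its range of 0 to 0.343. Gfap, the filament protein of reactive astrocytes, was at 611 CPM in replicate 2 and 227 in replicate 4 of APP/PS1, with 204 to 269 in WT. In bulk tissue, more cells of a type and more RNA per cell cannot be told apart.

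Serpina3k (ENSMUSG00000058207, 104338486 to 104346144, forward strand, protein-coding) had few reads, and its groups with and without APP/PS1 did not overlap. It had 11, 10 and 11 reads in WT, 2, 2 and 3 in Sirt3-/-, 33, 14 and 55 among APP/PS1 and 62, 21 and 40 among APP/PS1/Sirt3-/- libraries. All 6 libraries labelled with APP/PS1 lay above all 6 without, as held for 0.786% of genes tested (0.78% lay below). They had 225 reads against 39, a pooled ratio of 5.33 (exact 95% interval 3.78 to 7.70, counting error only). In CPM the groups were at 0.664 ± 0.0351 in WT, 0.144 ± 0.0403 in Sirt3-/-, 1.94 ± 1.13 among APP/PS1 and 2.33 ± 1.24 among APP/PS1/Sirt3-/- libraries (SD, n = 3). The spread within the APP-labelled groups was thus wide, and the library with App at the WT level, APP/PS1 replicate 4, was the highest of its group at 3.14 CPM.

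Sirt3-/- libraries had fewer Serpina3k reads than WT, 7 against 32 in all, without overlap. Of all genes tested, 8.49% were lower without overlap in this comparison. The pooled ratio was 0.215 (exact 95% interval 0.0803 to 0.497, counting error only). The fitted log2 fold change was -2.16 ± 0.70 (SE) and did not pass (edgeR adjusted p = 0.202), where 0.294% of genes were called. The exact permutation test gave p = 0.1, the smallest that 3 libraries against 3 allow.

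For Serpina3k, the 3 genes with the highest Pearson r over the 12 libraries were Rbm8a (0.93), Gc (0.90) and Alb (0.89). Alb encodes albumin and Gc the vitamin D binding protein, both plasma proteins made by hepatocytes, and Rbm8a encodes a part of the exon junction complex. These values were chosen as the highest and have no test.

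Albumin reads were present in each library and differed between them. Alb was at 3.49 to 11.1 CPM in WT, 2.69 to 5.76 in Sirt3-/-, 8.88 to 18.4 among APP/PS1 and 11.2 to 48.2 among APP/PS1/Sirt3-/- libraries. In the APP/PS1 group Alb and Serpina3k had the same order of libraries, with replicate 4 highest and replicate 2 lowest. Replicate 2 of APP/PS1/Sirt3-/- was lowest for both, while the highest was replicate 4 for Alb and replicate 1 for Serpina3k. Gc had 5 to 10 reads in the libraries without APP/PS1 and 13 to 84 in those with it.

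The liver list as a whole moved in the same comparison. Of its 12 genes 10 were tested, and 3 rose with APP/PS1 averaged over both Sirt3 genotypes, with a median log2 fold change of 1.38 over the 10 against 0.00 for all genes. They were Cyp2e1, a drug-metabolising enzyme (1.54 ± 0.25 SE, adjusted p = 0.0178), Serpina1b (2.62 ± 0.50 SE, adjusted p = 0.0266) and Apoa2, an apolipoprotein (2.05 ± 0.39 SE, adjusted p = 0.0292). Summed over the list without Ttr, which the choroid plexus makes, and without its serpins, the level was 8.06 to 19.7 CPM in WT, 6.76 to 14.4 in Sirt3-/-, 16.3 to 38.6 among APP/PS1 and 22.9 to 72.1 among APP/PS1/Sirt3-/- libraries. The summed level including them was 16.8 to 1588, 16.1 to 1193, 511 to 1120 and 85.1 to 612 CPM in the same order. Hnf4a, a defining factor of hepatocytes, had 0 to 13 reads and was too low to be tested. The part of liver transcripts in the Serpina3k result was not tested.

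The serpins next to the cluster gave a further view of it. Of the 20 other Serpina genes on chromosome 12, Serpina1b, Serpina1d, Serpina1e and Serpina9 had enough reads for the test. Serpina1 genes encode alpha-1-antitrypsin, a plasma inhibitor made by the liver, and their copies are so alike that reads may be split among them wrongly. Serpina1d rose with APP/PS1 averaged over both Sirt3 genotypes (2.18 ± 0.49 SE, adjusted p = 0.0408) as Serpina1b did, and Serpina1e was at 3.80 ± 0.99 (SE, adjusted p = 0.0707). Serpina1e had 42, 12 and 53 reads among APP/PS1 and 42, 2 and 3 among APP/PS1/Sirt3-/- libraries, with 0 to 8 in the other libraries. Serpina1a was not tested and had 0 to 21 reads. Serpina9, known in humans from germinal centre B cells, had 9 to 47 reads in WT and 169 to 329 in Sirt3-/-. It had 134, 27 and 37 reads among APP/PS1 and 130, 20 and 257 among APP/PS1/Sirt3-/- libraries. Its log2 fold change in Sirt3-/- against WT was 3.05 ± 0.94 (SE) and did not pass (edgeR adjusted p = 0.216). Of all genes tested, 10.3% were higher without overlap in that comparison. Striatal markers were at 3.70 to 4.83 in WT and 6.31 to 7.21 in Sirt3-/- (mean log2 CPM). A link between these markers and Serpina9 was not tested. Serpina6 reached 17 reads in APP/PS1/Sirt3-/- replicate 4 and Serpina10 16 in the same library.

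**Figure D4:**
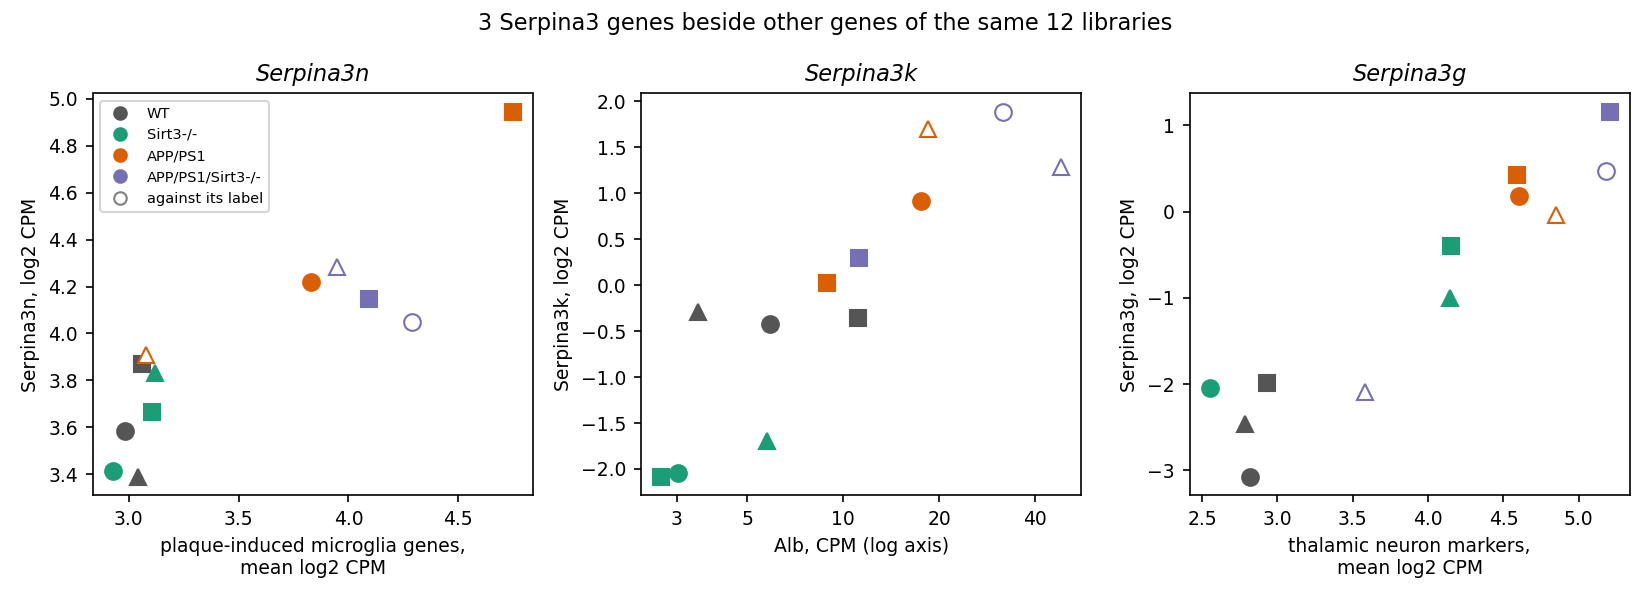
Log2 CPM of Serpina3n, Serpina3k and Serpina3g (y axes) in the 12 libraries beside the mean log2 CPM of plaque-induced microglia genes, Alb in CPM on a log axis, and the mean log2 CPM of thalamic neuron markers (x axes). Colours are groups, circles, squares and triangles are replicates 1, 2 and 4, and open symbols are the 3 libraries that went against their labels. The 4 libraries with thalamic markers from 2.55 to 2.93, and APP/PS1/Sirt3-/- replicate 4 at 3.58, had at most 2 Serpina3g reads.

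Serpina3g (ENSMUSG00000041481, 104236245 to 104241939, forward strand, protein-coding) was almost silent in WT. It had 0, 2 and 1 reads in WT, 2, 11 and 6 in Sirt3-/-, 19, 19 and 15 among APP/PS1 and 22, 40 and 2 among APP/PS1/Sirt3-/- libraries. APP/PS1 lay above WT without overlap, but APP/PS1/Sirt3-/- replicate 4, with 2 reads, lay within the WT range. The pooled ratio of APP/PS1 to WT was 16.5 (exact 95% interval 5.34 to 82.5, counting error only). In CPM the means were 0.0655 ± 0.0665, 0.382 ± 0.259, 1.03 ± 0.184 and 1.17 ± 1.00 in WT, Sirt3-/-, APP/PS1 and APP/PS1/Sirt3-/- (SD, n = 3).

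For Serpina3g, the 3 highest Pearson r were with Kctd9 (0.97), Foxb1 (0.97) and Glra1 (0.97), again chosen as the highest and without a test. Foxb1 encodes a transcription factor of the thalamus, hypothalamus and midbrain, and Glra1 a glycine receptor subunit of brainstem and spinal cord. Foxb1 had no reads in WT, 1, 12 and 3 in Sirt3-/-, 24, 20 and 20 among APP/PS1 and 23, 54 and 3 among APP/PS1/Sirt3-/- libraries. Within APP/PS1/Sirt3-/-, replicate 4 was lowest and replicate 2 highest for both genes.

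Thalamic markers were low in WT, where Serpina3g was low, but within APP/PS1 the library lowest in one was highest in the other. Their mean log2 CPM was 2.79 to 2.93 in WT and 2.55, 4.15 and 4.15 in Sirt3-/-. Among APP/PS1 libraries it was 4.59 to 4.85, with replicate 2 lowest and replicate 4 highest, where Serpina3g was at 1.22 and 0.856 CPM. The replicates of APP/PS1/Sirt3-/- were at 5.18, 5.21 and 3.58. Summed over the 12 markers the level was 199 to 203 CPM in WT, 166 to 351 in Sirt3-/-, 430 to 517 among APP/PS1 and 246 to 664 among APP/PS1/Sirt3-/- libraries. All 12 markers were tested, and Tnnt1 (1.82 ± 0.34 SE, adjusted p = 0.0335) and Lef1 (1.02 ± 0.21 SE, adjusted p = 0.0358) rose with APP/PS1 averaged over both Sirt3 genotypes, with a median log2 fold change of 1.53 over the list. Lhx9 was at 2.85 ± 0.65 (SE, adjusted p = 0.0585). Gbx2, a defining factor of the thalamus, had 0 to 58 reads per library. With the region markers as covariates the log2 fold change of Serpina3g was 0.63 against 2.74 without, as given above. That fit cannot tell region from label, since the thalamic means of WT and APP/PS1 did not overlap. The part of the dissected region in the result was not tested.

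**Figure D5:**
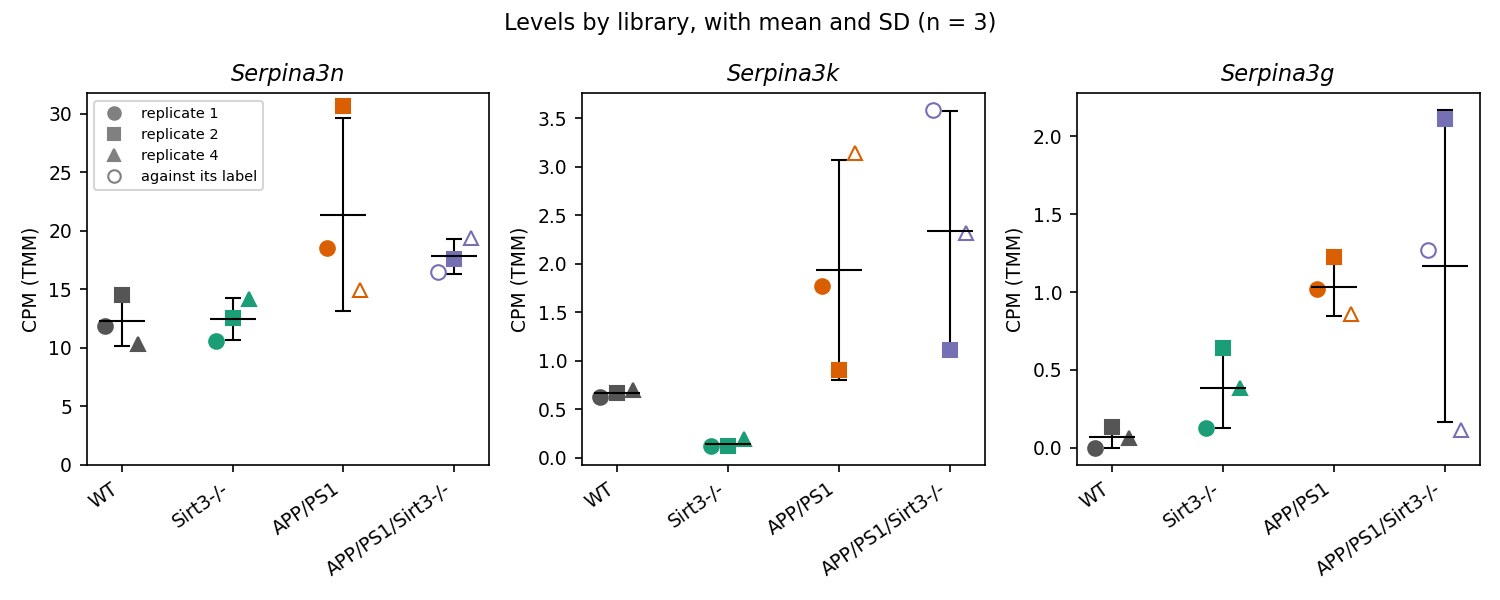
CPM of Serpina3n, Serpina3k and Serpina3g (y axes) by group (x axis), with each library as a point and the mean and SD (n = 3) as a line with bars. Circles, squares and triangles are replicates 1, 2 and 4, and open symbols are the libraries that went against their labels. In APP/PS1 replicate 2 is highest for Serpina3n at 30.7 CPM and lowest for Serpina3k at 0.901 CPM.

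The 3 genes thus had their highest libraries in different places. Within APP/PS1, Serpina3n was highest in replicate 2, where Serpina3k was lowest with 14 reads, and Serpina3k was highest in replicate 4, where Serpina3n was lowest. Within APP/PS1/Sirt3-/-, Serpina3g was highest in replicate 2 with 40 reads, where Serpina3k was lowest with 21. Serpina3n varied least in that group, from 16.5 to 19.4 CPM.

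The second question was what Sirt3 deletion, as labelled, did with and without the transgenes. Replicates 1 and 4 of APP/PS1/Sirt3-/- had 28.6 and 27.7 CPM of Sirt3, against 0.186 to 0.467 in Sirt3-/-. In Sirt3-/- against WT no member passed in edgeR or in DESeq2, and 1, Serpina3k, had an unadjusted p under 0.05. DESeq2 called 2.6% of genes there, and 13.5% had an unadjusted p under 0.05. Serpina3n was at 0.02 ± 0.24 (SE) and Serpina3g at 2.49 ± 1.21 (SE) on the log2 scale, with adjusted p of 0.982 and 0.396. In APP/PS1/Sirt3-/- against APP/PS1, the log2 fold changes were -0.26 ± 0.23 for Serpina3n, 0.26 ± 0.43 for Serpina3k and 0.19 ± 0.66 for Serpina3g (SE), with adjusted p from 0.974 to 0.990. No member passed there in either tool and none had an unadjusted p under 0.05, while edgeR called 0.024% of genes, DESeq2 0.042%, and 4.86% had an unadjusted p under 0.05. The 95% limits from the SE were -0.70 to 0.18, -0.59 to 1.10 and -1.11 to 1.49. The libraries of this pair of groups overlapped for all 3 genes, while 5.7% of genes were higher and 6.21% lower without overlap.

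Averaged over both backgrounds, Sirt3 deletion gave -0.12 ± 0.16 for Serpina3n, -0.95 ± 0.41 for Serpina3k and 1.34 ± 0.69 for Serpina3g (SE, adjusted p of 0.821, 0.375 and 0.472). No member passed in edgeR or DESeq2, which called 0.222% and 1.98% of genes. Serpina3k had an unadjusted p under 0.05, as did 12.3% of genes. The interaction is the difference between the fitted Sirt3 changes of the groups labelled with and without APP/PS1. For Serpina3k it was 2.41 ± 0.82 (SE) on the log2 scale and did not pass (edgeR adjusted p = 0.745). For Serpina3n this interaction was -0.28 ± 0.33 and for Serpina3g -2.30 ± 1.39 (SE, adjusted p of 0.908 and 0.817). No gene passed the interaction in edgeR, so 0% were called, and 1 member, Serpina3k, had an unadjusted p under 0.05, as did 6.48% of genes. DESeq2 called no member and 0.0721% of genes.

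In APP/PS1/Sirt3-/- against Sirt3-/-, Serpina3k had 123 reads against 7, without overlap, and a pooled ratio of 16.1 (exact 95% interval 7.58 to 40.9, counting error only). Of all genes tested, 6.98% were higher and 6.63% lower without overlap there. The fitted log2 fold change was 3.96 ± 0.61 (SE) and missed the threshold (edgeR adjusted p = 0.0578), where no gene passed and 0% were called. It passed in 10 of 22 alternatives, DESeq2 among them. Serpina3n was at 0.52 ± 0.23 (SE, adjusted p = 0.426) with no overlap between the groups, and Serpina3g at 1.59 ± 0.75 (SE, adjusted p = 0.454) with overlap. No member passed in edgeR, 2 had an unadjusted p under 0.05 (11.4% of genes did), and DESeq2 called 1 member and 0.787% of genes. Fitted to these groups alone it also called 1 member, and 0.39% of genes.

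The 5 remaining members could only be described by their reads. Serpina3h (ENSMUSG00000041449, 104247905 to 104253669, forward strand) had 3, 0 and 0 reads in WT, 0, 1 and 0 in Sirt3-/-, 3, 4 and 5 among APP/PS1 and 1, 3 and 4 among APP/PS1/Sirt3-/- libraries. That made 20 reads in libraries labelled with APP/PS1 against 4 in those without, a ratio of 4.62 (exact 95% interval 1.55 to 18.6, counting error only; exact permutation p = 0.02, two-sided). Serpina3h shared the most stretches of 50 bases with other copies. Serpina3m (ENSMUSG00000079012, 104338486 to 104394257, forward strand, protein-coding) had 1 read in WT, 1 in Sirt3-/-, 5 among APP/PS1 and 7 among APP/PS1/Sirt3-/- libraries, with a ratio of 5.55 between libraries with and without APP/PS1 (interval 1.23 to 51.0, exact permutation p = 0.055). Its most reads, 5, were in APP/PS1/Sirt3-/- replicate 4.

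For Serpina3f, Serpina3c and Serpina3i no difference was detectable at this depth. Serpina3f (ENSMUSG00000066363, 104214544 to 104221129, forward strand, protein-coding) had 2, 1, 5 and 2 reads in WT, Sirt3-/-, APP/PS1 and APP/PS1/Sirt3-/-. Serpina3c had 2, 2, 3 and 2. Their ratios between libraries with and without APP/PS1 were 2.16 (exact 95% interval 0.492 to 12.9) and 1.16 (0.249 to 5.82), with exact permutation p of 0.535 and 1. Serpina3i (ENSMUSG00000079014, 104263122 to 104269372, forward strand, protein-coding) had 1, 2 and 1 reads in APP/PS1/Sirt3-/- and none in the other 9 libraries, and the exact permutation p was 0.1 with APP/PS1 labels permuted within Sirt3 genotype. The 6 comparisons of each of the 8 members by these exact tests were not adjusted for their number.

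Target proteases and inducers of Serpina3 genes were read from lists, and all values below are for APP/PS1 averaged over both Sirt3 genotypes. Of 15 proteases that Serpina3 proteins are known to inhibit, 9 were tested and Klk6 rose, a kallikrein of oligodendrocytes, by 0.91 ± 0.19 (SE) on the log2 scale (adjusted p = 0.0358). Klk6 was at 4.55 ± 0.34 CPM in WT and 10.3 ± 1.05 in APP/PS1 (SD, n = 3). It was at 6.28 ± 0.56 in Sirt3-/- and 9.83 ± 4.57 in APP/PS1/Sirt3-/- (SD, n = 3). Replicate 4 of APP/PS1/Sirt3-/-, at 5.21 CPM, lay below the Sirt3-/- range of 5.64 to 6.71. Ctsl, the cysteine protease cathepsin L, was at 0.27 ± 0.07 (SE, adjusted p = 0.0551) and Ctsh, cathepsin H, at 0.27 ± 0.13 (SE, adjusted p = 0.251). The median over the list was 0.10 against 0.00 over all genes.

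Of 24 genes of cytokines, STAT3 signalling and the acute phase, 18 were tested and none passed in edgeR, with 2 at an unadjusted p under 0.05 and a median of 0.09. Over all genes tested, the share at an unadjusted p under 0.05 was 20.9% in either direction, for this list and those that follow. Jak2 was at -0.14 ± 0.06 (SE, adjusted p = 0.227) and Lrg1 at -0.50 ± 0.24 (SE, adjusted p = 0.254). Of 14 glucocorticoid response genes none passed, 3 were lower at an unadjusted p under 0.05, and the median was -0.13, with Per1 at -0.60, Sult1a1 at -0.27 and Sgk1 at -0.33. Of 19 interferon response genes none passed, 7 were higher at an unadjusted p under 0.05, and the median was 0.53, with Ifit3 at 0.96 and Rsad2 at 0.83. Of 31 reactive astrocyte genes tested none passed, 8 were higher and 1 lower at an unadjusted p under 0.05, and the median was 0.12, with Hspb1 at 0.42, Amigo2 at 0.98 and Vim at 0.32.

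Among markers of cells and regions, 3 of 16 plaque-induced microglia genes rose, Ccl3 (2.73 ± 0.51 SE, adjusted p = 0.0245), Clec7a (3.01 ± 0.66 SE, adjusted p = 0.0412) and Ccl6 (1.68 ± 0.38 SE, adjusted p = 0.0435). Ccl3 and Ccl6 encode chemokines. Of 12 endothelial and mural markers Kdr rose (0.42 ± 0.09 SE, adjusted p = 0.0341) and Pdgfrb fell (-0.22 ± 0.05 SE, adjusted p = 0.0492), with Flt1 at 0.24. None passed among 12 astrocyte markers (median 0.07, Gfap 0.93, Slc1a2 -0.25, Aqp4 0.41), 10 microglia markers (0.17, Itgam 0.35, Siglech 0.21) or 11 oligodendrocyte markers (0.20, Olig2 0.34, Ugt8a 0.39). None passed among 8 blood and lymphocyte markers tested (median 0.56, Hba-a2 1.14, Ptprc 0.46, Alas2 0.69) or 11 choroid plexus markers (median -0.00, Otx2 1.04, Kcnj13 -0.54, Enpp2 -0.12). None passed among 12 striatal (-0.13, Foxp1 -0.39, Six3 0.77, Isl1 0.72), 11 hippocampal (0.34, C1ql2 1.60, Trhr 1.06, Pdzd2 -0.22) or 11 cortical neuron markers (-0.35, Emx1 -0.61, Camk2a -0.35, Lamp5 -0.67). At an unadjusted p under 0.05, 7 of the cortical markers were lower and none higher, beside 20.9% of all genes tested in either direction.

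Of 10 tested genes that flank the cluster none passed in edgeR. At an unadjusted p under 0.05, 4 were higher and none lower, beside 20.9% of all genes tested in either direction. The median was 0.12 with a range from -0.10 to 0.81, with Glrx5 at 0.14, Clmn at 0.21 and Ifi27 at 0.25. Across the other 7 comparisons, 5 genes of these lists passed. They were Ppp4r4, a flanking gene, in Sirt3-/- against WT (0.49 ± 0.07 SE, adjusted p = 0.0147), and Pdgfrb (-0.39), Cyp2e1 (1.88), Gbx2 (5.56) and Emx1 (-1.25) in APP/PS1/Sirt3-/- against WT.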

How the data were processed

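Cortex RNA was sequenced in 12 libraries. After adaptor and quality trimming, the authors aligned reads to GRCm38 (mm10) by TopHat, and the deposited counts are whole reads for each gene. The deposited FPKM values equal the counts divided by gene length and by the reads counted in genes. The sources at hand name no counter, annotation release or read length. Deposited fold changes and p-values from DESeq2 were not used. Groups came from library titles, numbered 1, 2 and 4.

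Tests used edgeR 4.0.16 with R 4.3.3 (filterByExpr, TMM, 1 robust quasi-likelihood model of the 4 group means, Benjamini and Hochberg adjustment over 16673 genes, threshold 0.05; tested on simulated data). DESeq2 1.42.0 was an alternative, as were other normalizations, filters, covariates and left-out libraries. Low members were described by reads, exact 95% intervals of pooled ratios (counting error only) and exact permutation tests. Sequences came from GENCODE vM21 and RefSeq, with Biopython 1.88 and Python 3.11.15.

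The members, gene lists and tests were chosen with earlier results of these data known. All 8 members are named in every comparison, list genes by the 3 smallest p in the averaged APP/PS1 comparison or by passing the threshold, and like genes by Pearson r (8 for Serpina3n, 3 each for Serpina3k and Serpina3g). Some genes that this rule picks are not reported here.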

Additional observations from a re-analysis of the deposited data

How the results depend on the processing

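Members called in edgeR were 1 with APP/PS1 averaged over both Sirt3 genotypes and 0 in the other 7 comparisons. In the averaged comparison the number was 3 with DESeq2 and with the replicate block. Without the low-count filter, and with sex as a covariate, it was 2. It was 0 with the strict filter (which drops Serpina3k and Serpina3g), with region covariates and with only the 8 libraries that had Xist reads. The Xist alternative was chosen after seeing the data. No count is given without the 3 libraries that went against their labels, which left only replicate 2 of APP/PS1/Sirt3-/-. Leaving out each library gave 0 to 3. In APP/PS1 against WT it was 2 with DESeq2 on all libraries, 1 and 3 with edgeR and DESeq2 on the groups compared, and 0 to 1 with a library left out. In APP/PS1/Sirt3-/- against WT it was 2 and 3 with DESeq2, and 0 to 2 with a library left out. In APP/PS1/Sirt3-/- against Sirt3-/- it was 1 (Serpina3k) with either DESeq2 fit, without the filter, with the block and with sex as a covariate, and 0 to 1 with a library left out. The causes were not tested. These counts include Serpina3g where it passed, although its selection favoured a difference with APP/PS1.

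The replicate numbers were not taken as a pairing, since same-numbered libraries correlated over 0.1 in their deviations from group means in only 8 of 15 pairs over 5 comparisons (-0.11 to 0.23). As a hint from the data, a library correlated best with its own number in 10 of 15 checks, in which libraries recur, and replicate 4 of every group had Y-linked reads. With the block, Serpina3n and Serpina3g were at edgeR adjusted p of 0.0474 and 0.0407 with APP/PS1 averaged over both Sirt3 genotypes. The selection of Serpina3g favoured such a difference.

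Signs turned only in values that had not passed. Serpina3n in Sirt3-/- against WT was -0.19 with only the Xist libraries and -0.085 to 0.16 with a library left out. In APP/PS1/Sirt3-/- against APP/PS1, Serpina3k was -0.29 without the 3 libraries, a fit with only replicate 2 of APP/PS1/Sirt3-/-. In the same comparison Serpina3g was -0.039 with the block. With a library left out there, Serpina3n was -0.47 to 0.091, Serpina3k -0.19 to 0.78 and Serpina3g -0.57 to 0.72. With region covariates, Serpina3g in APP/PS1/Sirt3-/- against Sirt3-/- was -0.44 and Serpina3n 0.13 for Sirt3 deletion averaged. Without APP/PS1 replicate 2 the interaction of Serpina3n was 0.070 and its averaged Sirt3 change 0.056 (leaving out each library, -0.49 to 0.070 and -0.22 to 0.056). Depth limits the 5 members of at most 5 reads per library.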
